A study of Mus musculus with 4 samples.

Results

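Scavenger receptors are cell surface and lysosomal proteins that bind modified lipoproteins, dead cells, bacteria and other polyanionic ligands. The genes read here, in mouse macrophages, are 10 of them, chosen by name: Olr1, Msr1, Cd36, Marco, Scarb1, Scarb2, Cd68, Stab1, Cd163 and Mertk. All 10 were found by gene symbol, each with 1 probe set, among 19938 genes measured by probe sets of a single gene. Of these, 9 (all but Cd163) reached the floor on at least 1 array, as did 10625 genes of the whole series. The floor is the median log2 signal of all genes over the arrays, 7.62, and a signal under it is not shown to be above background.

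The cells were macrophages grown from bone marrow of C57BL/6N mice in 10 ng/mL M-CSF and harvested on day 9. M1 cells received 10 ng/mL interferon-γ for 48 h, and M2 cells 20 ng/mL interleukin-4 for 48 h. The inflammatory cytokine interleukin-1α (IL-1α) was added at 10 ng/mL for 24 h to some cells of each phenotype, and vehicle to the others. Each of the 4 groups holds 1 Affymetrix array, so no value has a replicate error. The labels used here give no age or sex of the mice and do not say whether animals were pooled. A group without interferon-γ or interleukin-4 was not analysed here, so the 2 cytokines are compared only with each other.

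In macrophages, scavenger receptors take up oxidised and acetylated lipoproteins without the feedback that limits the native lipoprotein receptor, which makes them a route to lipid-laden foam cells. The class A receptors Msr1 and Marco have collagen-like stalks and also bind bacteria. The class B receptors Cd36 and Scarb1 cross the membrane at both ends and handle fatty acids and lipoproteins, Olr1 (LOX-1) is a C-type-lectin-like receptor for oxidised low-density lipoprotein, and Stab1, Cd163 and Mertk clear other cargo (acetylated lipoprotein and matrix fragments, haemoglobin bound to haptoglobin, and dying cells).

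Olr1 and Marco were the members that varied most over the 4 arrays, and the stretch before their RefSeq start is shown, with that of Edn1, the gene whose pattern was nearest to that of Olr1 among all genes at the floor. Each stretch is the 250 bases before the start that RefSeq's promoter table gives on GRCm38.p6, written 5′ to 3′ on the gene's strand. Capitals mark matches, on either strand, to the AP-1 motif TGANTCA, the NF-κB-like pattern GGGNNNNNCC, the STAT6 pattern TTCNNNNGAA, the interferon-γ-activated site TTCNNNGAA and the PU.1 core GAGGAA.
Olr1, chr6:129507166-129507415, minus strand: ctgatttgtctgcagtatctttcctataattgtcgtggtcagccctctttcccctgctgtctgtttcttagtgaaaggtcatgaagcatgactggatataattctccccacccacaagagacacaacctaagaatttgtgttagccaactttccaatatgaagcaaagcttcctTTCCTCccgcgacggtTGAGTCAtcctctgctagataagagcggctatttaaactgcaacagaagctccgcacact
Marco, chr1:120505025-120505274, minus strand: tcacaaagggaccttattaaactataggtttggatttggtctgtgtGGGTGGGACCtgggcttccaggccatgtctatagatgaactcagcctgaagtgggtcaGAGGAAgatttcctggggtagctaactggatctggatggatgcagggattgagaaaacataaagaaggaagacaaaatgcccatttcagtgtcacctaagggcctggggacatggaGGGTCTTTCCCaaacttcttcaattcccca
Edn1, chr13:42301226-42301475, plus strand: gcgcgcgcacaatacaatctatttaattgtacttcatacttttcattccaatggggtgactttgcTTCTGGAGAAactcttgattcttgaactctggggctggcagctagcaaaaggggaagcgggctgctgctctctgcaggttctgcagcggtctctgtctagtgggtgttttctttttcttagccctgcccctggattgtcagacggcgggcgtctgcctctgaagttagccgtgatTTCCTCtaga

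The Olr1 stretch held 1 AP-1 match, 60 to 54 bases before the start, and 1 PU.1 core, and no NF-κB-like, STAT6 or interferon-γ-activated-site match. Of these 250 bases, 185 lie inside the RefSeq span of Olr1 (chr6:129479150-129507350), which begins further upstream, so the table's start is not the only one annotated. Marco held 3 NF-κB-like matches, 2 of which overlap on opposite strands 30 to 20 bases before the start, and 1 PU.1 core. Edn1 held 1 STAT6 pattern and 1 PU.1 core. The AP-1 motif was in 6.75% of all 32851 stretches of this length in the table, the NF-κB-like pattern in 45.8%, the STAT6 pattern in 5.85%, the interferon-γ-activated site in 7.02% and the PU.1 core in 23.3%. A stretch was listed for 8 members (none for Msr1 and Scarb1): 2 held AP-1 (Olr1 and Cd68), 5 the NF-κB-like pattern, 4 the PU.1 core, 0 the STAT6 pattern and 0 the interferon-γ-activated site. A match is a description of letters, and binding was not measured here.

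The arrays carried most of the marks of their labels. Of 11 macrophage markers measured, 11 reached the floor on both M1 arrays and 10 on both M2 arrays, where Aif1 was under it. The interferon-γ-induced Nos2 differed by -6.21 (log2, M2 minus M1 with vehicle) and the interleukin-4-induced Arg1 by 5.72. In that comparison, 3 of 4 interferon-γ check genes measured passed 2-fold downward, and 5 of 5 interleukin-4 check genes passed it upward. The exception was the interferon-γ check gene Ciita, at -0.13 with vehicle and -0.07 with IL-1α. Of 12 NF-κB target genes listed as a check of IL-1α, 10 passed 2-fold upward in M2 after IL-1α, against 0.35% of all genes. In M1, 0 of the 12 did, against 0% of all genes, and their median difference was 0.12. The check lists were chosen with earlier results of these data known, so they are not an independent check of the labels. Across all probe sets the 2 arrays of a phenotype correlated at r = 0.9969 (M1) and 0.9958 (M2), and arrays of different phenotypes at 0.9617 to 0.9658.

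Olr1 stood apart from the other members, as the only one at least 2-fold different with IL-1α. Its log2 signal was 6.20 in M1 with vehicle, 6.40 in M1 with IL-1α, 7.62 in M2 with vehicle and 9.38 in M2 with IL-1α. Both M1 arrays read under the floor, the M2 vehicle array read only 0.0024 above it, and the M2 IL-1α array was clearly above. With IL-1α in M2, Olr1 was therefore higher by 1.76, or 3.39-fold, on a baseline that sat at the floor. It ranked 14th highest of 10284 genes in that comparison, in which 0.35% of genes were at least 2-fold higher and 0% at least 2-fold lower. With the floor at the 75th percentile of all genes, 9.63, all 4 signals of Olr1 were under it and no member counted.

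Here and below, signals are given with vehicle first and IL-1α second. In M1 the difference for Olr1 was 0.19, with both arrays under the floor. The contrast of the 2 responses read 1.57 (log2) for Olr1, a value that rests on an M1 response under the floor. Of 10625 genes, 0.32% had a response at least 2-fold larger in M2 and 0% at least 2-fold larger in M1. Olr1 was the single member of the 9 at the floor to pass in this contrast, and 4 arrays leave no degree of freedom to test it. The M1 vehicle signal of Olr1 stood at -1.41 (log2) from the floor. A fall of Olr1 in M1, or a rise too small to reach the floor, was therefore not detectable. A rise that took the IL-1α signal to the floor would have been counted, and none was seen.

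**Figure D1:**
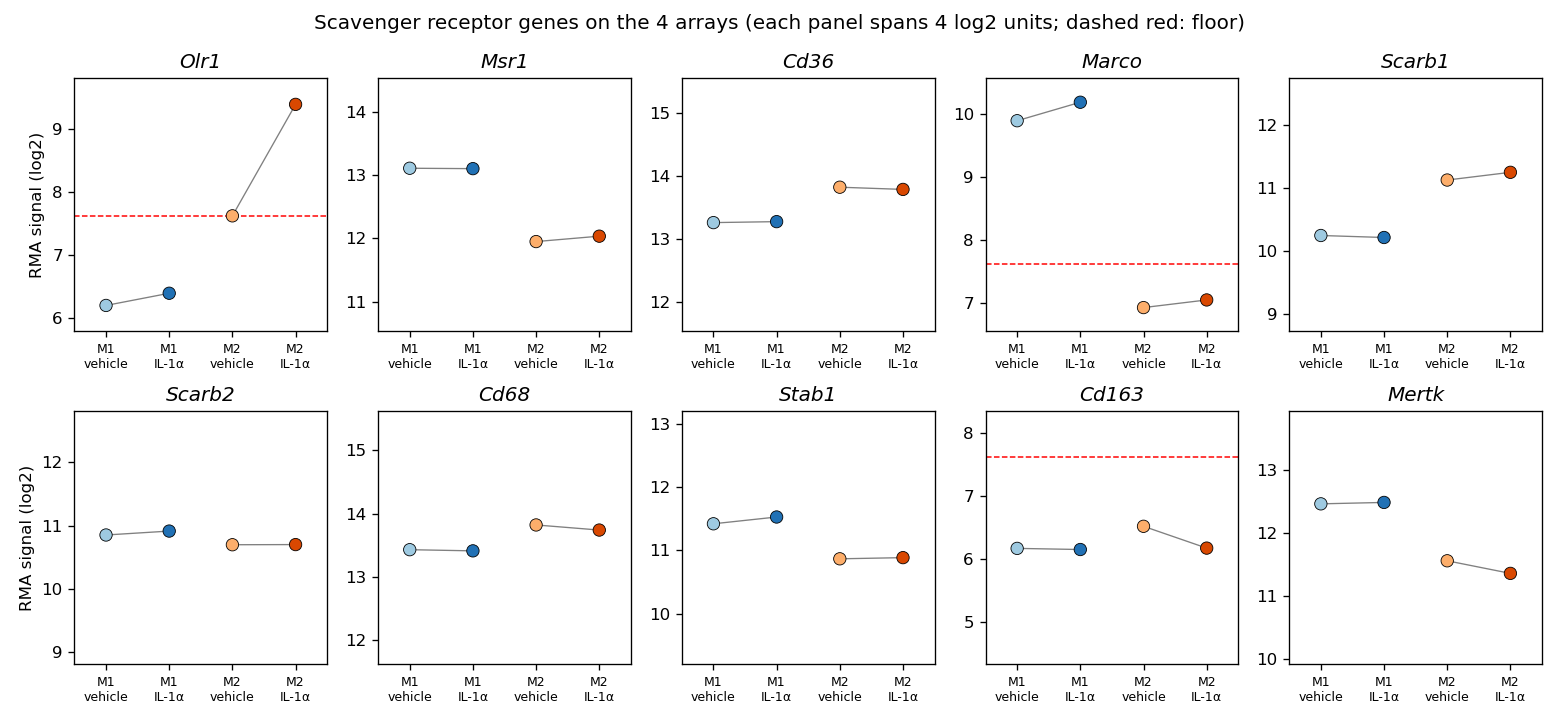
RMA log2 signal (y axis) of each of the 10 scavenger receptor genes on the 4 arrays (x axis; 1 point is 1 array, lines join vehicle and IL-1α of a phenotype). Panels share a span of 4 log2 units but not their position, since signals of different probe sets are not comparable; the dashed line is the floor at 7.62. Olr1 goes from 7.62 to 9.38 in M2, whereas Marco is above the floor on the M1 arrays alone.

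The other 7 members at the floor in M2 differed by -0.20 to 0.12 with IL-1α in that phenotype. Scarb1, the high-density lipoprotein receptor, was at 0.12, Msr1 at 0.09, Stab1 at 0.02, the lysosomal membrane protein Scarb2 at 0.0025, the fatty acid translocase Cd36 at -0.03 and the late endosomal glycoprotein Cd68 at -0.08. Mertk, a receptor tyrosine kinase for dying cells, was lowest at -0.20, 353rd lowest of 10284 genes. The median of the 8 members at the floor in M2 was 0.01, against 0.05 over all genes in the comparison. That all-gene median depended on the scaling. It was 0.014 after loess centring and -0.012 after a further quantile normalisation. The sign of Scarb2 and Stab1 here turned under loess centring and under a further quantile normalisation, so these values have no settled direction.

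In M1, none of the 8 members at the floor was 2-fold different with IL-1α, and neither was any of the 10012 genes compared (0% in each direction). Their differences ran from -0.03 to 0.29, with a median of 0.02 against -0.0018 over all genes. Marco was highest. Its signal was 9.89 with vehicle and 10.18 with IL-1α in M1, and 6.93 and 7.06 in M2, under the floor. Its M1 difference of 0.29 was 77th highest, and 1.89% of all genes differed by at least as much in either direction. The next was Stab1 at 0.11, a size that 28.9% of genes reached.

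**Figure D2:**
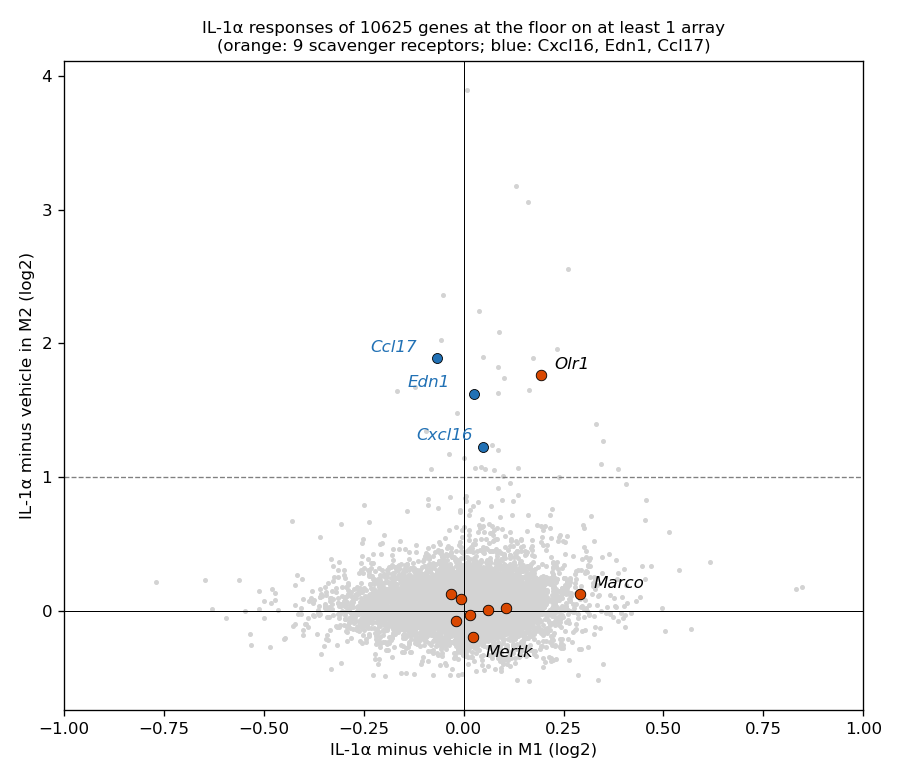
Difference with IL-1α in M1 (x axis, log2) against that in M2 (y axis, log2) for the 10625 genes at the floor on at least 1 array (grey), 9 scavenger receptors (orange) and 3 other genes described in the text (blue); the dashed line is 2-fold in M2. Olr1 lies at 0.19 and 1.76, and the other 8 receptors lie between -0.20 and 0.12 on the M2 axis.

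Between the phenotypes, Msr1 and Marco were both lower in M2, whereas Colec12, another class A scavenger receptor, was higher (2.40 with vehicle and 2.54 with IL-1α). With vehicle, 1 of the 9 members at the floor was at least 2-fold higher in M2 (Olr1), where 7.03% of 10489 genes were, and 2 were at least 2-fold lower (Marco and Msr1), where 6.83% were. Marco differed by -2.95 (7.75-fold lower) with vehicle and by -3.13 with IL-1α, with both M2 arrays under the floor, so that its size is uncertain. Msr1 read 13.11 and 13.10 in M1 and 11.95 and 12.04 in M2, a difference of -1.16 with vehicle (2.23-fold lower) and of -1.07 with IL-1α. Both M1 signals of Msr1 lay within 1.30 of the brightest probe set of their array.

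Of the class B receptors, Scarb1 and Cd36 read higher in M2, and Scarb2 differed little. Scarb1 read 10.25 and 10.22 in M1 and 11.13 and 11.25 in M2, a difference of 0.88 with vehicle and of 1.03 with IL-1α. Cd36 read 13.26 and 13.28 in M1 and 13.82 and 13.79 in M2, a difference of 0.56 with vehicle. Scarb2, which carries β-glucocerebrosidase to lysosomes, read 10.85 and 10.92 in M1 and 10.70 and 10.70 in M2. Its difference of -0.15 with vehicle was of a size that 70.8% of genes reached in either direction. All 4 Cd36 signals lay within 1.14 of the top of their array, where a bright probe set can respond less than in proportion; this was not tested.

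Olr1 was higher in M2 than in M1 by 1.42 with vehicle (2.67-fold) and by 2.99 with IL-1α (7.92-fold). With IL-1α it ranked 88th highest of 10479 genes. Both M1 arrays read under the floor, so neither size is settled. With vehicle the difference no longer counted under loess centring or quantile normalisation (1.36 in either case), when the M2 signal of Olr1 fell short of the floor. Cd68, used as a macrophage marker, read 13.43 and 13.41 in M1 and 13.82 and 13.74 in M2, a difference of 0.39 with vehicle that 40.9% of genes reached in either direction.

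Mertk and Stab1 both read lower in M2. Mertk read 12.46 and 12.48 in M1 and 11.56 and 11.36 in M2, a difference of -0.90 with vehicle and of -1.12 with IL-1α. Stab1 read 11.42 and 11.53 in M1 and 10.87 and 10.89 in M2, a difference of -0.55 with vehicle. Cd163, the haemoglobin scavenger receptor often used as a marker of alternatively activated human macrophages, read 6.17 and 6.15 in M1 and 6.52 and 6.17 in M2. All 4 Cd163 signals lay at least 1.10 under the floor, so no difference is reported for it.

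**Figure D3:**
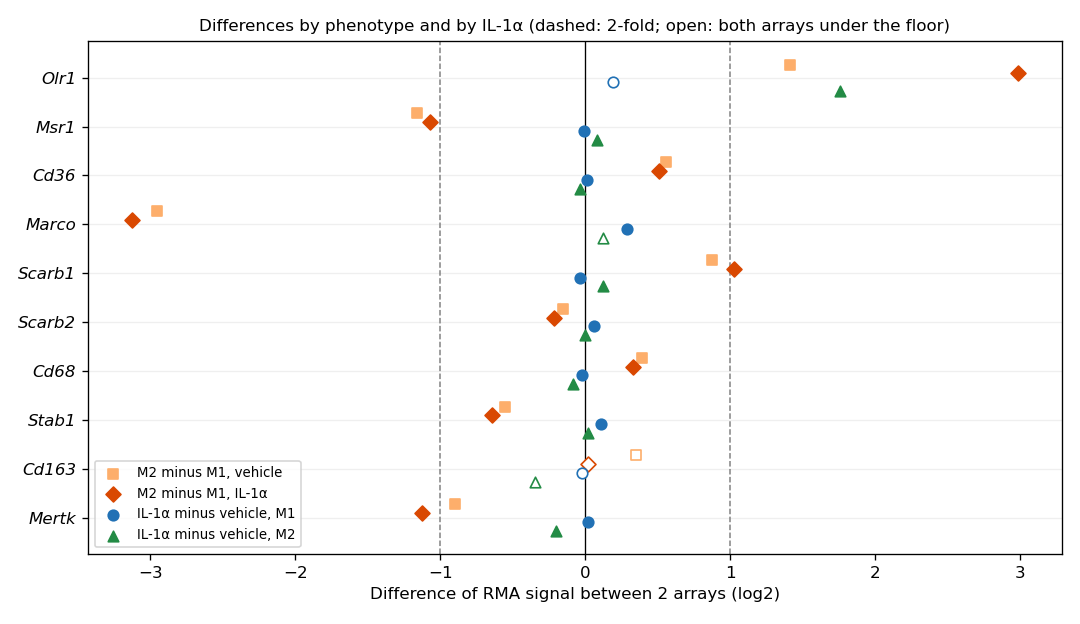
Difference of log2 signal (x axis) for each member (y axis): M2 minus M1 with vehicle (squares) and with IL-1α (diamonds), and IL-1α minus vehicle in M1 (circles) and in M2 (triangles). Each symbol is 1 pair of arrays, open symbols have both arrays under the floor, and dashed lines mark 2-fold; Marco and Msr1 lie left of -1 in both phenotype comparisons and Olr1 right of 1.

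With IL-1α on both sides, 2 of 9 members were at least 2-fold higher in M2 (Olr1 and Scarb1), where 8.15% of 10479 genes were, and 3 were at least 2-fold lower (Marco, Mertk and Msr1), where 6.06% were. Scarb1 and Mertk, at 0.88 and -0.90 with vehicle, thereby crossed the threshold by small steps in opposite directions. Scarb1 fell short of it after loess centring, at 0.98. The order of the phenotypes was the same with vehicle and with IL-1α for all 9 members at the floor, also after loess centring or a further quantile normalisation. The 2 comparisons use different arrays.

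An additive limma model tested the phenotype difference averaged over vehicle and IL-1α. Its error is how far the arrays depart from additivity, and not a spread between cultures or mice. It called 4 of the 9 members higher in M2 (Olr1, Cd36, Scarb1 and Cd68) and 5 lower, whereas it called 33.2% of all 10625 genes higher and 29.3% lower. Marco and Olr1 are among these calls, but they reached the floor only in the phenotype where they read high, so their effects were measured against readings at or under it. Of the other 7, Msr1 had the smallest p, with an effect of -1.11 ± 0.05 (SE; limma adjusted p = 2.718e-09), followed by Mertk at -1.01 ± 0.06 (limma adjusted p = 5.105e-08). Scarb1 stood at 0.95 ± 0.07 (limma adjusted p = 2.124e-07) and Cd36 at 0.53 ± 0.04 (limma adjusted p = 3.227e-07).

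Stab1, Cd68 and Scarb2 passed with smaller effects of -0.60 ± 0.06, 0.36 ± 0.04 and -0.18 ± 0.06, the last with a limma adjusted p of 0.027. The departure from additivity was largest for Olr1, at 1.57. With a robust variance prior the Olr1 call was lost (limma adjusted p = 0.187), and Scarb2 was lost under 3 alternatives.

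For the average IL-1α effect over M1 and M2, limma called 0 of the 9 members and 0% of 10625 genes in either direction. At an unadjusted p under 0.05 there were 1 member, Olr1 (0.98 ± 0.26 SE, unadjusted p = 0.0031, limma adjusted p = 0.495), and 646 genes in all. The value for Olr1 is the mean of 0.19 in M1, under the floor, and 1.76 in M2.

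Other receptors for lipoproteins and related ligands gave another gene with an IL-1α difference. Of 18 listed, 17 were measured and 11 reached the floor in M2. Of the 11, Cxcl16 alone was at least 2-fold higher with IL-1α in M2, where 0.35% of all genes were. Cxcl16 is a membrane-bound chemokine that also binds oxidised lipoprotein, and it read 12.29 and 12.33 in M1 and 9.55 and 10.78 in M2. Its difference with IL-1α was thus 1.23 in M2 and 0.05 in M1, where it was far brighter. Unlike Olr1, Cxcl16 was lower in M2 than in M1, at -2.73 with vehicle and -1.55 with IL-1α.

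By phenotype, 3 of those 11 receptors were at least 2-fold higher in M2 with vehicle, where 7.03% of all genes were. They were the mannose receptor Mrc1 (5.31), the scavenger receptor Colec12 (2.40) and the secreted scavenger protein Cd5l (2.18). Another 3 were at least 2-fold lower, where 6.83% of all genes were. These were Cxcl16, the lipopolysaccharide co-receptor Cd14 (-2.33) and Scarf1, a receptor for modified lipoprotein (-1.05). The median of the 11 was 0.20, against 0.01 over all genes and -0.15 over the 9 members. In limma, 5 of the 11 rose and 3 fell in M2, against 33.2% and 29.3% of all genes.

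Genes of dead cell uptake reached the floor in 17 of 22 cases; in M2 with vehicle, 8 passed 2-fold upward and 4 downward, against 7.03% and 6.83% of all genes, and limma called 9 higher and 8 lower, against 33.2% and 29.3%. The integrin subunit Itgb3 was higher by 4.16 (under the floor in M1), the bridging proteins Mfge8 by 2.91 and Pros1 by 2.04, and Anxa1 by 1.51. On the other side stood the lipid receptor Cd300lf at -3.19 (under the floor in M2), the complement subunit C1qa at -2.56, Axl at -2.13 and Tgm2 at -1.66. Axl, of the same receptor kinase family as Mertk, thus lay on the same side as Mertk, and Pros1, a ligand of Mertk, on the other. None of the 16 at the floor in M2 was 2-fold different with IL-1α, and the largest differences there were Axl at 0.26 and Tgm2 at 0.20.

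Of 16 lipid storage and efflux genes at the floor, limma called 10 higher and 4 lower in M2 (all genes 33.2% and 29.3%). With vehicle, 3 passed 2-fold upward (the fatty acid binding protein Fabp4 by 2.85, the sterol hydroxylase Cyp27a1 by 2.06 and the sterol exporter Abcg1 by 1.02). Another 2 were lower, the oxysterol receptor Nr1h3 (-2.09) and the sterol hydroxylase Ch25h (-1.73). Of all genes, 7.03% were at least 2-fold higher and 6.83% at least 2-fold lower in that comparison. With IL-1α in M2 none passed 2-fold, and Ch25h (0.57) and Nr1h3 (0.54) differed most. The 16 lysosomal genes at the floor were compact, with 1 past 2-fold by phenotype (Glb1, higher in M2 by 1.05) and a median of 0.22. Limma called 11 of these higher in M2 and 0 lower (all genes 33.2% and 29.3%). With IL-1α in M2 they ran from -0.06 to 0.04. Of 10 haem-handling genes at the floor, none passed 2-fold in any comparison, and Blvra (0.63) and Hmox1 (-0.57) differed most by phenotype with vehicle. Limma called 3 of the 10 higher and 4 lower in M2 (all genes 33.2% and 29.3%).

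**Figure D4:**
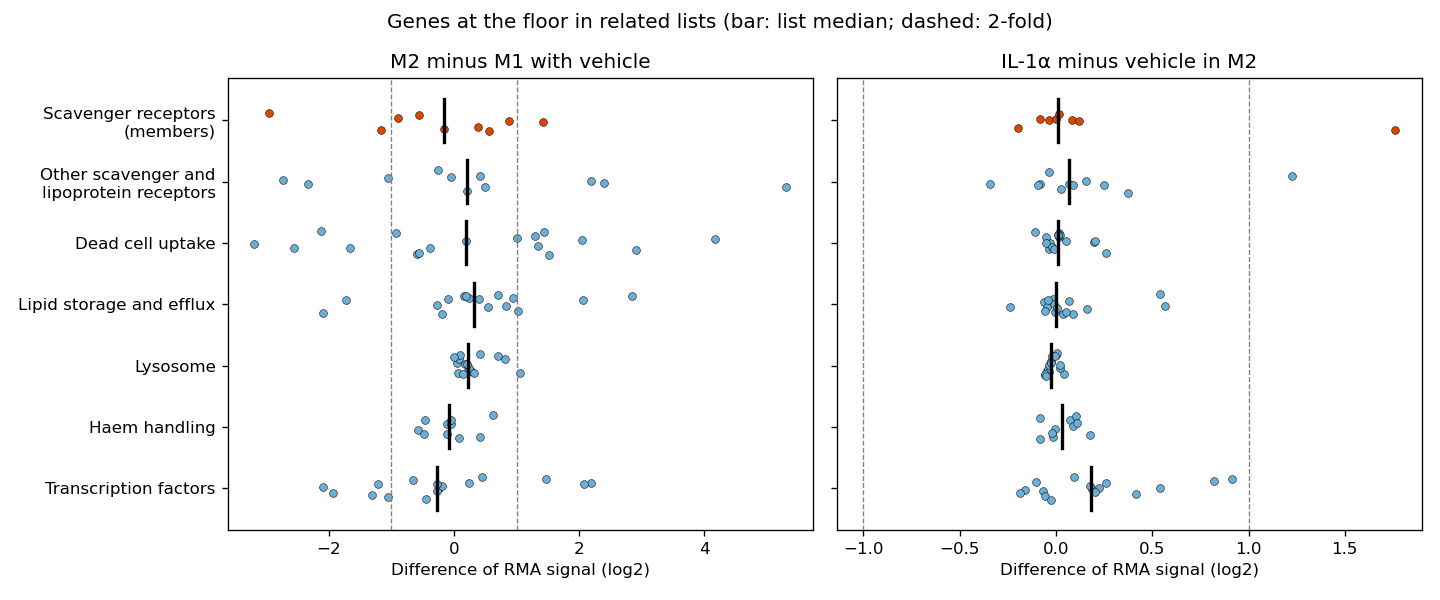
Difference of log2 signal (x axis) for genes at the floor in the members' list (orange) and 6 related lists (blue), M2 minus M1 with vehicle on the left and IL-1α minus vehicle in M2 on the right; points are genes, black bars list medians and dashed lines 2-fold. By phenotype the lists reach both sides of 2-fold except the lysosomal and haem lists, and with IL-1α the points past 2-fold are Olr1 (1.76) and Cxcl16 (1.23).

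Transcription factors known to act on scavenger receptor genes were listed as well, and 16 reached the floor. With vehicle 3 were at least 2-fold higher in M2, namely the fatty acid sensor Pparg by 2.20, Tfec by 2.07 and Cebpa by 1.47. Another 5 were lower, led by Nr1h3 (-2.09), the interferon regulatory factor gene Irf1 (-1.93), Nfkb2 (-1.31) and Relb (-1.22). Of all genes, 7.03% were at least 2-fold higher and 6.83% at least 2-fold lower in that comparison. In limma, 5 of the 16 rose and 9 fell in M2 (all genes 33.2% and 29.3%). With IL-1α in M2 none passed 2-fold, and the NF-κB subunit genes Relb (0.92) and Nfkb2 (0.82) differed most. The list median was 0.18 against 0.05 over all genes. The latter was 0.014 after loess centring and -0.012 after quantile normalisation. In M1 the list median was 0.0053.

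The genes most like Olr1 were found by the root mean square distance of log2 signals over the 4 arrays, after each gene was centred on its own mean. The nearest was Edn1, which encodes the vasoconstrictor peptide endothelin-1, at a distance of 0.12. Edn1 read 6.74 and 6.76 in M1 and 8.32 and 9.94 in M2. Its difference with IL-1α was 0.03 in M1 and 1.62 in M2. The chemokine gene Ccl17 followed at 0.27, with 7.20 and 7.14 in M1 and 8.91 and 10.80 in M2.

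The next 3 were Sult1a1 (0.43), Prkaa2 (0.44) and Zbtb10 (0.46), whose differences with IL-1α in M2 were 0.55, 0.64 and 0.76. All 5 genes read under the floor on both M1 arrays, as Olr1 did. The distance rests on 4 arrays and on dim M1 signals, and the order of the last 3 spans only 0.03.

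**Figure D5:**
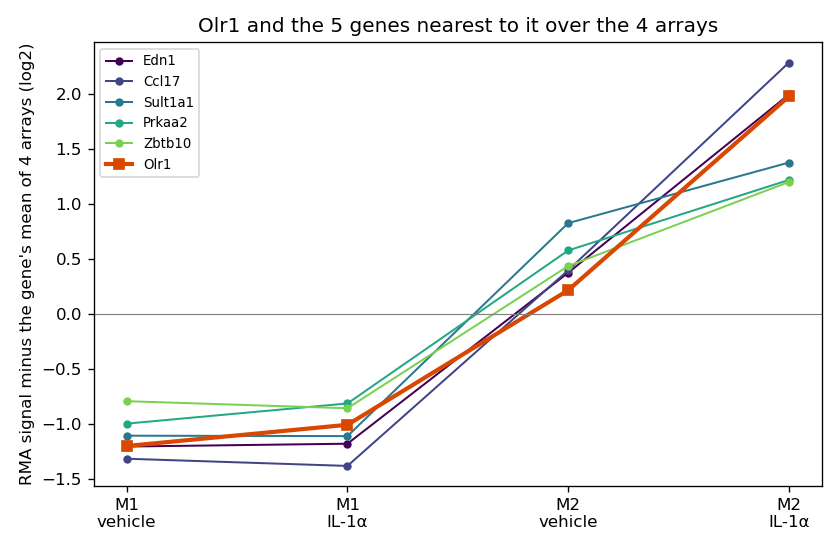
Log2 signal minus the gene's own mean of the 4 arrays (y axis) for Olr1 (thick orange line, squares) and the 5 genes nearest to it (thin lines), by array (x axis); 1 point is 1 array. Edn1 follows Olr1 most closely at a distance of 0.12, and Sult1a1, Prkaa2 and Zbtb10 are flatter between the M2 arrays.

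Markers of other cells that carry these receptors were read beside them, since in a culture fewer cells of a type and less RNA per cell cannot be told apart. Endothelial cells carry Olr1, Cd36 and Stab1. Of 10 endothelial markers measured, 3 reached the floor on the M1 arrays and 2 on the M2 arrays. Their mean log2 signal was 7.11 and 7.17 in M1 and 7.44 and 7.36 in M2, and Cdh5, Tek, Tie1, Emcn, Esam, Egfl7 and Cldn5 were under the floor on all 4 arrays. Vwf was brightest, at 8.51 and 8.48 in M1 and 11.83 and 11.76 in M2. Pecam1 read 8.18 and 8.33 in M1 and 8.92 and 8.80 in M2. Kdr went the other way, at 8.05 and 8.02 in M1 and, under the floor, 6.72 and 6.60 in M2. Most of the 10 endothelial markers read under the floor, so their mean is largely background. The part of endothelial cells in the values of Olr1, Cd36 and Stab1 was not tested.

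Of 5 platelet markers measured, 2 or 3 reached the floor on an array, with a mean of 7.72 and 7.80 in M1 and 8.26 and 8.33 in M2 and Pf4 brightest (10.74 in M1 and 12.32 in M2 with vehicle). Of 5 adipocyte markers, 0 or 1 reached it. With vehicle, Adipoq read 6.21 in M1 and 8.50 in M2, whereas Cidec read 7.66 in M1 and, under the floor, 7.52 in M2. The part of platelets and adipocytes in the phenotype differences of Cd36 and Scarb1 was not tested. Neutrophil markers reached the floor in M2 alone (4 of 7 with vehicle, with Ngp at 9.92, and 3 of 7 with IL-1α). Dendritic markers reached it mainly in M1 (3 of 7, with Clec9a at 9.97 with vehicle), against 1 of 7 in M2. That 1 was Zbtb46, under the floor in M1 (7.46 and 7.43) and above it in M2 (7.94 and 7.89). The part of neutrophils and dendritic cells in the differences of Olr1, Marco, Msr1 and Mertk was not tested. None of 6 lymphoid markers reached the floor on any array.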

How the data were processed

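RNA of each sample was amplified to biotin-labelled sense-strand DNA for 1 array, per the labels' protocols. The authors deposited log2 signals of probe sets, made by RMA with Affymetrix Expression Console per the notes on processing; settings are not given in the sources used here, and the log base is read from the range of 3.09 to 14.47. RMA is meant to give arrays a common distribution and can compress differences of dim probe sets. In the deposited values the array medians over all probe sets still ran from 7.32 to 7.38. The small number of arrays limits precision.

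Among 35556 probe sets, 21789 had a single gene in the platform annotation, 1621 had several and 12146 had none; those with a single gene were averaged per gene, after symbols were updated by RefSeq's GRCm38.p6 table (21698 matched). A comparison took genes with at least 1 of its arrays at the floor and counted log2 differences of at least 1 (2-fold), with no test. limma 3.58.1 (R 4.3.3; eBayes with trend, 1 residual degree of freedom and 10.05 from the prior) fitted phenotype and treatment over 10625 genes, with Benjamini-Hochberg adjustment at 0.05, and was tested on simulated data. Labels do not say whether arrays are separate cultures. With 1 array a group, the p-values rest on the departure from additivity combined with the prior, and not on a spread between replicates.

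The members and all gene lists (181 of 193 symbols measured) were chosen with earlier results of these data known. Named were members, some check genes, and up to 4 genes of a list per direction past 2-fold (otherwise the 2 largest). The 5 genes nearest to Olr1, without predicted genes, and some markers are named as well. Other settings tried were a lower fold, no floor or a higher one, loess, quantile normalisation, the brightest probe set, and eBayes without trend or robust.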

Additional observations from a re-analysis of the deposited data

Results flagged for a closer look

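For 4 members, the IL-1α difference had opposite signs in M1 and M2. Each rests on 1 pair of arrays per phenotype and the difference was not tested. Scarb1 was at -0.0317 in M1 and 0.122 in M2, Mertk at 0.0225 and -0.199, Msr1 at -0.00639 and 0.0853, and Cd36 at 0.0154 and -0.0349. None reached 2-fold in either phenotype. After loess centring 5 members had opposite signs (Msr1 left, and Scarb2 and Stab1 joined), and after quantile normalisation 6 did (Scarb2 and Stab1 joined). Of 9671 genes at the floor in both phenotypes, 48.6% had opposite signs, as did 4 of the 7 members at the floor there. The share of genes was 46.6% after loess centring and 46.3% after quantile normalisation, with 7 members at the floor in each. The median absolute difference of all genes was 0.07 in M1 and 0.09 in M2.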

How the results depend on the processing

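At a 1.5-fold threshold, 5 members instead of 3 differed between the phenotypes with vehicle (Scarb1 and Mertk were added). With the floor at the 75th percentile (9.63), 0 members instead of 1 differed with IL-1α in M2 and 0 instead of 1 in the response difference, because Olr1 read under that floor on all 4 arrays. For the same reason the Olr1 calls between the phenotypes were lost under that floor, with vehicle and with IL-1α. The other counts of members, with no floor, loess centring, quantile normalisation or the brightest probe set, were within 1.5 times the main count. Within those, the Olr1 call between phenotypes with vehicle was lost under loess centring (1.36), quantile normalisation (1.36) and the brightest probe set, since its M2 vehicle signal sits at the floor, and the Scarb1 call with IL-1α was lost under loess centring (0.98). In limma, Scarb2 was lost without the trend (adjusted p = 0.062), without a floor (0.051) and after quantile normalisation (0.055), and Olr1 with the robust prior (0.187). Of 424 single-member values, 403 kept their call and moved by less than 0.1 where they were not called. None that was called changed sign. Only loess centring (shifts of -0.13 to 0.11) and quantile normalisation (-0.07 to 0.10) could move a value or its sign. The other settings shifted every value by 0, since they change a threshold, the floor or a variance, or read the same single probe set. For those, an unchanged value and sign were fixed in advance. No paired analysis was possible because each group holds 1 array, and for the same reason no array could be left out in turn. Signal over background limits Olr1, Marco and Cd163. Cd36, Cd68 and Msr1 read close to the top of the array, and whether this compressed their differences was not tested.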
